A study of Rattus norvegicus with 2 samples.

Results

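The messenger RNA of 74 genes for molecular chaperones was followed in the kidneys of old F344 rats, an inbred strain, that ate either a casein control diet or a diet with 14% soy. The genes are all rows of the deposited table of 29516 Ensembl genes whose symbol begins with one of the family names Hspa, Hspb, Hspd, Hspe, Hsp90, Dnaja, Dnajb, Dnajc or Cct2 to Cct8, together with Hsph1. Diets began at 16 months of age and lasted 4 months, so that both groups were 20 months old, and kidney RNA was the material of both libraries. The labels name 1 library for casein and 1 for soy. They do not say how many animals gave RNA to each, which sex the rats were or which region of the kidney was used.

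Chaperones bind unfolded proteins and help them to fold, to cross membranes or to be degraded. HSP70 proteins do this in cycles of ATP hydrolysis that are started by J-domain proteins, the DNAJ families, and reset by nucleotide exchange factors such as HSP110. HSP90 acts later on signalling proteins, the HSP60 and HSP10 pair forms a folding chamber in mitochondria, the CCT subunits build the ring that folds actin and tubulin in the cytosol, and small heat shock proteins hold unfolded proteins without using ATP. Heat and other stresses induce many of these genes through the transcription factor HSF1, which binds repeated heat shock elements. Kidney cells also make small heat shock proteins and HSP70 in the salty inner medulla.

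The symbols cover 10 Hspa genes, 4 Hsp90 and Hsph1 genes, 3 Hspd and Hspe genes, 8 Hspb genes, 4 Dnaja, 13 Dnajb, 23 Dnajc and 9 Cct genes. A name is not always a function. Hspb11 encodes a component of intraflagellar transport, and Hspd1-ps2 is named as a pseudogene. Some relatives carry other names in the table and are not among the 74. They include Tcp1, the first CCT subunit, a row named LOC680121 that is described as the constitutive HSP70 of the cytosol, and rows described as DnaJ subfamily C members 9 and 27.

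Promoter sequences show which of the genes carry the letters of a stress response element. Of the 74 genes, 58 had an entry in the RefSeq promoter table of the rat reference genome GRCr8, which covers 250 bases before to 50 after each gene start. A run of 3 alternating heat shock units, GAANNTTCNNGAA or its reverse complement TTCNNGAANNTTC on either strand, stood in 5 of these 58 promoters and in 0.798% of all 33469 promoters. The 5 genes were Hspd1, Hspe1, Hsph1, Dnaja1 and Cct4. Hsp90aa1 and Hspb2 were among the genes without an entry and were not searched. Only exact matches within the window were counted, so an element of other form or place would be missed. Hspd1 and Hspe1, which encode HSP60 and its cochaperone HSP10, lie next to each other on chromosome 9, and 211 bases of their promoter windows are the same DNA read in opposite directions. Their sites are therefore the same site, in which a match on each strand overlaps the other. The Hspe1 promoter and the windows of the other 3 genes are shown because these elements are the known route from stress to chaperone transcription; the heat shock units are in capitals.
Hspe1 promoter, chr9:64084077-64084376, + strand: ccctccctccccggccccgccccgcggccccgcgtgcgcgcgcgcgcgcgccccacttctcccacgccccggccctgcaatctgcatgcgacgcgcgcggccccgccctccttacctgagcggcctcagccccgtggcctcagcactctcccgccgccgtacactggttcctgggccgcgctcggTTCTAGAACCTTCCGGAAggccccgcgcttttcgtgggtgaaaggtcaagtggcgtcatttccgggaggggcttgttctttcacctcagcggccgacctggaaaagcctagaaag
Hsph1, chr12:10427317-10427359, + strand: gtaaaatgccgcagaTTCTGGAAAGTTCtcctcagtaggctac
Dnaja1, chr5:60638398-60638440, + strand: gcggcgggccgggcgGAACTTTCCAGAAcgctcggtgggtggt
Cct4, chr14:101193067-101193106, + strand: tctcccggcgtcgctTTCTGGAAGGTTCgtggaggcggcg

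The endoplasmic reticulum has its own element. Its letters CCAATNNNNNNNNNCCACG, or the reverse complement, stood in 3 of the 58 promoters and in 0.0657% of all promoters. The 3 genes were Hspa5, Hsp90b1 and Dnajc3, all of them chaperones of that compartment. Hsp90b1 held it at 2 places, of which the one in the forward reading is shown. The element is in capitals.
Hspa5, chr3:38452958-38453006, + strand: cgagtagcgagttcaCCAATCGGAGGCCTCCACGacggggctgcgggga
Hsp90b1, chr7:23012436-23012484, - strand: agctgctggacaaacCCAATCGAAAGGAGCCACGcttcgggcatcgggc
Dnajc3, chr15:102432519-102432567, + strand: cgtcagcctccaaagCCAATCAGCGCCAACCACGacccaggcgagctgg
A match of letters is a description of the reference strain and not evidence that a factor was bound in these kidneys.

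Expression is given as FPKM, the authors' estimate of fragments relative to transcript length and to the mapped total, so levels can be compared between genes. With 1 library per diet there is no spread between replicates, and no difference below has a replicate check or a test of its own. A gene is called measured here when its mean over both diets was at least 1 FPKM, which held for 64 of the 74 genes and 14077 of all rows. Differences are given as log2((soy FPKM + 0.1)/(casein FPKM + 0.1)), which understates those of low genes, and folds are plain ratios of the FPKM values. Markers of proximal tubule, thick ascending limb and podocytes were present in both libraries, and those of male germ cells, neurons and adrenal cortex had no member with a mean of at least 1 FPKM. In bulk kidney RNA, fewer cells of a type and less RNA per cell cannot be told apart. Leukocyte markers were lower with soy in 11 of 11 measured genes, with a summed level of all 12 of 1729 FPKM under casein and 1116 under soy. Their part in the chaperone values was not tested.

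The chaperone genes had nearly the same levels under both diets. Of the 64 measured genes 62 lay within 1.5-fold, while 11.9% of all measured genes lay beyond it. None was lower with soy by 1.5-fold or more, where 8.36% of all measured genes were, and 2 were higher by that much, where 3.56% of all were. Both of the higher genes, Hspb2 and Hspb7, are small heat shock proteins. None was past 2-fold, a limit that 3.81% of all genes passed downwards and 1.58% upwards. In 58 of the 64 the higher value was less than 25% above the lower one, and 24% of all genes were beyond that limit. The 6 others were 4 higher with soy (9.9% of all genes), namely Hspb2, Hspb7, Dnajc6 and Hspa1a, and 2 lower (14.1% of all genes), Hspb8 and Dnajb3. The median log2 difference was 0.03 for the chaperones and 0.01 for all genes, and the interquartile range was 0.19 wide for the chaperones against 0.28 for all genes.

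**Figure D1:**
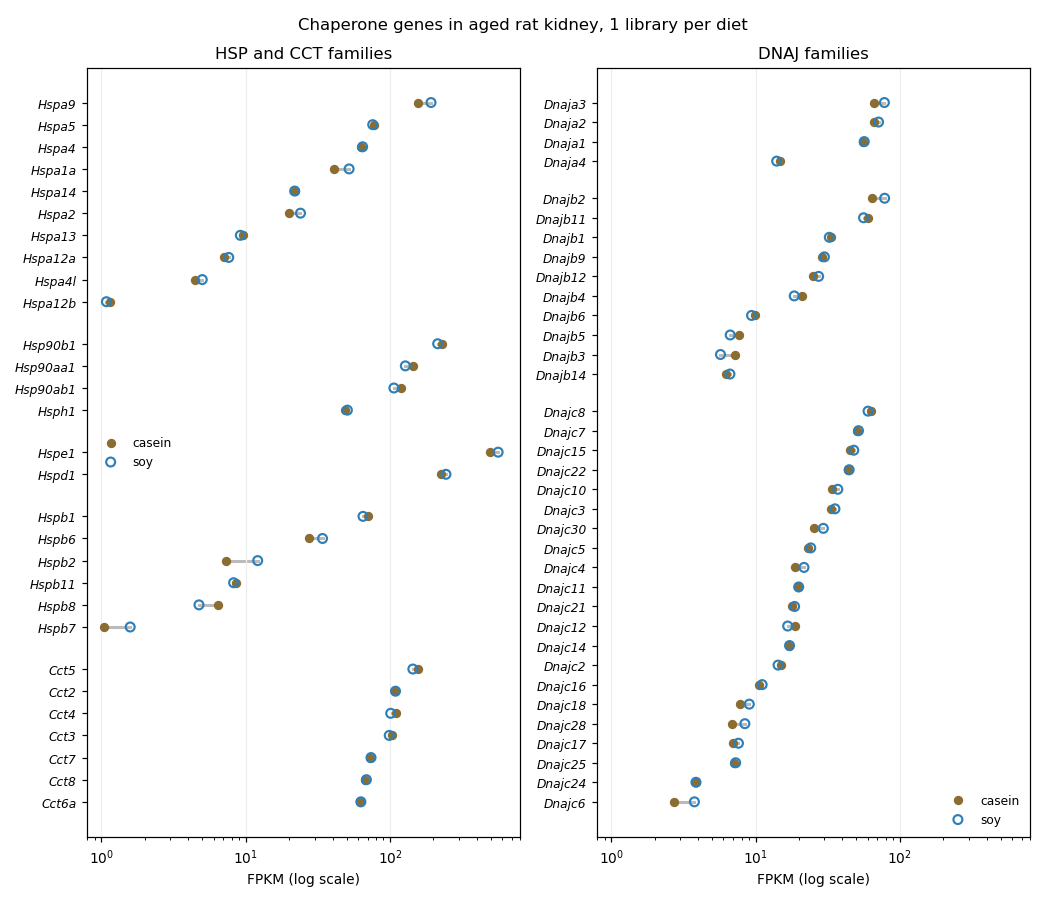
FPKM (log scale) of the 64 measured chaperone genes, ordered by mean within each family. Filled brown points are the casein library and open blue points the soy library, 1 library per diet. Most pairs of points touch, and the widest relative gaps are those of Hspb2, at 7.31 FPKM under casein and 12.1 under soy, and Hspb7, at 1.03 and 1.58.

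A larger share of low than of high genes was past 1.5-fold, so the chaperones were also set beside genes of like level. Above a mean of 20 FPKM there were 38 chaperone genes, and none of them was past 1.5-fold, against 5.37% of the 4895 genes at that level. Between 5 and 20 FPKM 1 of 21 chaperone genes was past 1.5-fold (8.76% of all genes at that level), and between 1 and 5 FPKM 1 of 5 (24.8%). Hspb2 and Hspb7 are these 2 genes.

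**Figure D2:**
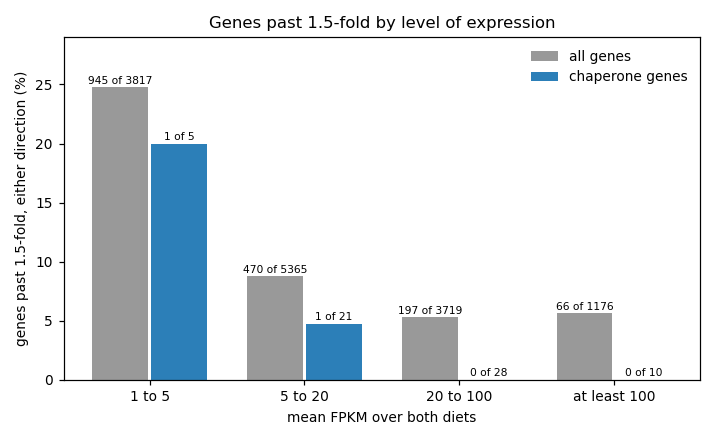
Percentage of genes past 1.5-fold in either direction, by mean FPKM over both diets, for all measured genes (grey) and the chaperone genes (blue). Numbers over the bars give the genes past 1.5-fold of the genes at that level; at 20 FPKM and above the chaperone bars are at 0.

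Summed over all 74 rows, the chaperones had 3402 FPKM under casein and 3524 under soy, 0.529% and 0.537% of the respective column totals. The mitochondrial pair supplied the largest family sum, 719 and 805 FPKM for Hspd and Hspe. The 9 Cct genes followed with 677 and 659 FPKM, and the HSP90 and Hsph1 genes with 542 and 498. The sums of Hspa, at 403 and 453, and of Hspd and Hspe were 1.12-fold higher with soy, the highest family ratios, while the ratio of the HSP90 and Hsph1 sum, 0.919, was the lowest.

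Of the 10 Hspa genes, all measured, 6 were higher and 4 lower with soy (median log2 0.07). None was past 1.5-fold, where 11.9% of all measured genes were. Hspa9, which encodes mortalin, the HSP70 of the mitochondrial matrix, had the highest level, at 157 FPKM in the casein library and 192 in the soy library, 1.22-fold higher. Hspa5, which encodes BiP of the endoplasmic reticulum, had 77.4 and 75.8 FPKM. The soy value of BiP was 1.02-fold lower. Hspa1a, the stress-inducible HSP70, had 41.2 FPKM under casein and 52.1 under soy, 1.26-fold higher and the largest difference of its family. The rat genome holds a near-identical copy, Hspa1b, which has no row under that symbol, and another row at the Hspa1a locus, described as an uncharacterized protein, had 10.7 and 12.5 FPKM, so the placing of fragments among them is uncertain. Hspa2, a related HSP70 that is abundant in testis, had 19.8 and 24.0 FPKM, 1.21-fold higher.

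The HSP110 proteins release ADP from HSP70. Hspa4 had 63.2 FPKM under casein and 64.6 under soy, and Hsph1, whose promoter holds the heat shock units shown above, 48.9 and 50.6. Hspa4l, first found in mouse as an osmotic stress protein of the inner medulla, had 4.43 and 5.00 FPKM. All 3 were higher with soy, by 1.02-fold, 1.03-fold and 1.13-fold. Hspa14, a partner of J-domain proteins on the ribosome, had 22.03 and 21.8 FPKM, and the endoplasmic reticulum member Hspa13 9.51 and 9.18. The divergent members Hspa12a (7.08 and 7.63 FPKM) and Hspa12b (1.15 and 1.08 FPKM) were likewise close between diets. The row LOC680121, described as the constitutive cytosolic HSP70 and not among the 74, had 167 and 172 FPKM. No row has the symbol Hspa8, the gene for that protein, and RefSeq names 33 pseudogenes of it. Whether LOC680121 stands for the gene or for a copy was not tested, and it may share fragments with copies.

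HSP90 genes were lower with soy, all by small amounts. Hsp90b1, the endoplasmic reticulum form, had 229.7 FPKM under casein and 214 under soy. Hsp90aa1, the stress-inducible cytosolic form, had 144.8 and 128 FPKM, 1.13-fold lower, and Hsp90ab1, the constitutive form, 119 and 106, 1.12-fold lower. Both cytosolic genes differed by nearly the same factor, and their ratio to each other was 1.22 with casein and 1.20 with soy. Each has many processed copies in the genome: RefSeq names 16 pseudogenes of Hsp90aa1 and 23 of Hsp90ab1. The listed locus of Hsp90ab1 is a span that holds 11 rows, its own included, so assignment of its fragments may be uncertain.

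The chaperonin of the mitochondrial matrix consists of HSP60 and HSP10. Hspe1, for HSP10, was the most abundant of all the chaperone genes, at 494 FPKM under casein and 561 under soy, and Hspd1, for HSP60, had 225 and 244. They were 1.14-fold and 1.09-fold higher with soy. Hspe1 stood at 2.20 times Hspd1 with casein and 2.30 times with soy, nearly the same proportion under both diets. RefSeq names 20 pseudogenes of Hspd1, so fragments of copies may enter its value. By the coordinates deposited with the values, which name no genome build, Hspd1 spans chromosome 9 from 53884192 to 53895043 and Hspe1 from 53895332 to 53898421. Hspd1-ps2 had less than 0.05 FPKM under both diets.

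When the J-domain partners of mitochondria were added, 7 chaperone genes of that compartment could be viewed together, in a grouping made after the values had been seen. All 7 were higher with soy, with log2 differences from 0.02 to 0.29 and a median of 0.18. Beside Hspa9, Hspe1 and Hspd1 they were Dnaja3, the matrix cochaperone Tid1 (65.8 and 78.2 FPKM), Dnajc30 (25.4 and 29.5), Dnajc15 of the protein import motor (45.4 and 48.0) and Dnajc11 of the inner membrane organising system (19.7 and 19.9). Of 12 other genes for mitochondrial protein import, folding and proteolysis, 9 were higher and 3 lower, with a median of 0.10. Clpx, the unfoldase of the ClpXP protease, had 52.0 and 62.0 FPKM, Pmpca, a subunit of the peptidase that removes import signals, 63.8 and 73.1, and Grpel1, the exchange factor of mortalin, 106 and 119. Grpel1 is also counted below among the HSP70 cochaperones, and Trap1, the mitochondrial HSP90, among the HSP90 cochaperones. The median of all measured genes stood at 0.01, and 52.8% of them were above 0. From 20 FPKM upwards, where all of the 7 but Dnajc11 lie, the background median was 0.04 and the share above 0 was 61.2%. With a grouping made after the values were seen, the count of 7 out of 7 was not tested against these shares.

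Chaperones of the endoplasmic reticulum lumen, grouped in the same way, did not share a direction: 3 of 7 were higher and 4 lower, with a median log2 of -0.03. The J-domain partners of BiP were Dnajb11 (60.5 and 56.1 FPKM), Dnajb9 (28.8 and 30.0), Dnajc3 (33.2 and 35.5) and the disulfide reductase Dnajc10 (34.1 and 37.2). Hspa5, Hsp90b1 and Dnajc3, whose promoters hold the endoplasmic reticulum element, had log2 differences of -0.03, -0.10 and 0.10. Dnajb12 and Dnajb14, J-domain proteins of the reticulum membrane that face the cytosol, had 25.03 and 27.4 FPKM and 6.20 and 6.65 FPKM.

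Folding enzymes outside the HSP and DNAJ families were also viewed. Of 12 measured endoplasmic reticulum folding enzymes and partners that are not among the 74, 9 were lower and 3 higher with soy, with a median log2 of -0.09. Serpinh1, which encodes the collagen-specific chaperone HSP47, had 136 FPKM on the casein diet and 82.2 on the soy diet, 1.66-fold lower. It was the only one of the 12 past 1.5-fold in either direction, a limit passed by 11.9% of all measured genes, so the count is near the background. In the authors' deposited table its q was 0.124. Sdf2l1, a BiP partner, had 33.96 and 27.2 FPKM, and Ppib, a prolyl isomerase that also acts on collagen, 295 and 263. All 5 measured fibroblast markers were lower as well, with Col1a1 at 15.5 and 5.51 FPKM, and the summed level of the 6 found was 191 FPKM under casein and 134 under soy. Whether fibroblast content has a part in the Serpinh1 value was not tested.

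Genes that heat induces in the cytosol went both ways. In a grouping of 8 such genes made after their values were known, soy values were above casein in 4 and below in 4, and the median log2 was -0.004. Dnajb1, the main heat-inducible partner of HSP70, had 33.3 FPKM under casein and 32.5 under soy, while Hspa1a was 1.26-fold higher and Hsp90aa1 1.13-fold lower. Hsf1 itself had 16.2 and 15.6 FPKM, Hspbp1, for an exchange factor of HSP70, 40.6 and 38.9, and Hsbp1, which encodes a small protein that binds HSF1, 205 and 215. All 5 measured genes of the list of Hsf1 and heat shock regulators, in which Hspbp1 was placed, lay between -0.06 and 0.07 on the log2 scale. Hspbp1 is also counted below among the HSP70 cochaperones. The genes whose promoters hold 3 heat shock units had log2 differences of 0.12 for Hspd1, 0.18 for Hspe1, 0.05 for Hsph1, 0.03 for Dnaja1 and -0.11 for Cct4.

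**Figure D3:**
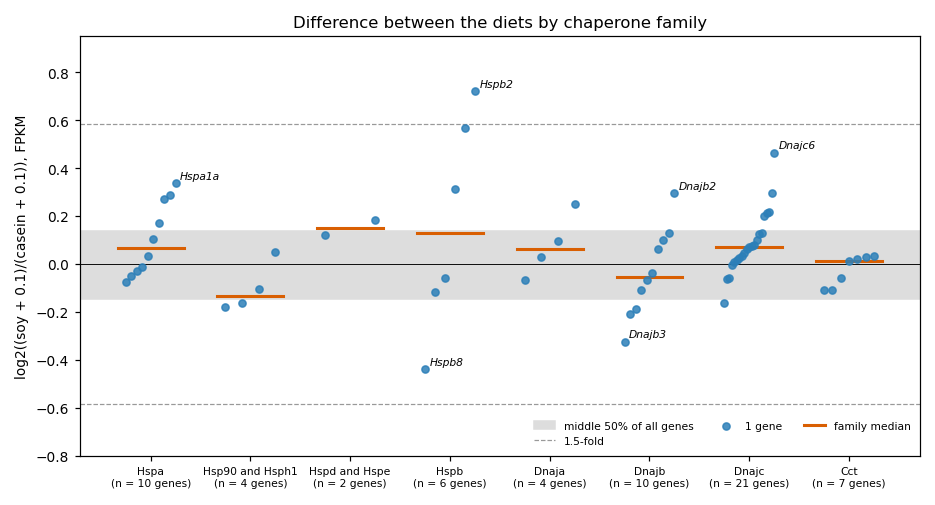
Log2 difference, soy over casein, of each measured chaperone gene by family (blue points), with the family median (orange line), the interquartile range of all 14077 measured genes (grey band) and the 1.5-fold limits (dashed lines). Hspb2 at 0.72 is the one point beyond a dashed line; Hspb7, with a ratio of 1.53, lies at 0.57 because of the added 0.1 FPKM.

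The Dnaja proteins are general cytosolic partners of HSP70, apart from mitochondrial Dnaja3. Dnaja2 had 66.6 FPKM under casein and 71.2 under soy, Dnaja1 55.5 and 56.7, and Dnaja4 14.7 and 14.0. Their log2 differences were 0.10, 0.03 and -0.07. The listed locus of Dnaja1 holds 6 rows, its own included.

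Of the 13 Dnajb genes, 10 were measured, and 4 of these were higher and 6 lower with soy (median log2 -0.05). Dnajb2, which carries client proteins to the proteasome, had 64.0 FPKM under casein and 78.5 under soy and was the highest by ratio, 1.23-fold. At the other end Dnajb3 had 7.20 and 5.72 FPKM, 1.26-fold lower. Its locus in the files also holds a row for the glucuronosyltransferase gene Ugt1a7c at 204 and 219 FPKM, so assignment of its fragments is uncertain. Dnajb4 (21.1 and 18.5 FPKM), Dnajb5 (7.74 and 6.68 FPKM) and Dnajb6, which suppresses protein aggregation (9.85 and 9.39 FPKM), were lower by 1.14-fold, 1.16-fold and 1.05-fold.

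The Dnajc family is the most varied in function, and 17 of its 21 measured genes were higher with soy (median log2 0.07). The highest ratio was that of Dnajc6, which encodes auxilin, the factor that uncoats clathrin vesicles, at 2.71 FPKM under casein and 3.77 under soy, 1.39-fold higher. Dnajc5, the cysteine string protein of secretory vesicles, had 23.0 and 24.1 FPKM. Dnajc8, a splicing-associated protein and the most abundant of the family, had 62.7 and 60.2 FPKM, and Dnajc7, which links HSP70 with HSP90, 50.9 and 51.7. Dnajc2, on the ribosome with Hspa14, had 14.98 and 14.3 FPKM, and Dnajc21, of ribosome assembly, 17.9 and 18.7. Dnajc12, a partner of the aromatic amino acid hydroxylases, was the lowest by log2 difference, with 18.7 and 16.7 FPKM. Dnajc28 (6.86 and 8.44 FPKM) came next to Dnajc6 in ratio, at 1.23-fold. The family members not named had log2 differences within these limits, among them Dnajc22 at 43.5 and 44.6 FPKM and Dnajc4 at 18.9 and 21.7. The share of Dnajc genes above 0, 81.0%, stands beside 52.8% of all measured genes and 61.2% of those with a mean of at least 20 FPKM.

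The subunits of the CCT ring differed little. All 7 measured Cct genes had ratios between 0.926 and 1.02, 4 of them higher and 3 lower with soy (median log2 0.01, and -0.002 when centred on all genes). Cct5 was the most abundant, at 155 FPKM under casein and 144 under soy. Cct2 had 108 and 109, Cct4 109 and 101, Cct3 103 and 98.7, Cct7 72.2 and 73.8, Cct8 67.2 and 68.6, and Cct6a 61.9 and 62.8. The 3 lower subunits, Cct3, Cct4 and Cct5, are 3 of the 4 most abundant. The remaining subunit gene, Tcp1, had 48.5 and 50.5 FPKM. The ring contains each subunit once, yet the FPKM of Cct5 was 3.20 times that of Tcp1 with casein and 2.85 times with soy. RefSeq names 14 pseudogenes of Cct6a. Prefoldin, which delivers actin to the ring, and other partners of CCT, listed with Tcp1, gave 8 measured genes that lay between -0.09 and 0.07 on the log2 scale, among them Pfdn5 (190.1 and 199 FPKM), Pfdn6 (88.3 and 92.1 FPKM) and Pdcl3 (25.7 and 24.2 FPKM).

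The small heat shock proteins varied most. Of 8 Hspb genes 6 were measured, with log2 differences from -0.44 to 0.72 and an interquartile range of 0.61, against 0.19 for all chaperones. The 6 were also of lower level, with a median of 9.06 FPKM against 28.4 for all measured chaperones. Over all genes the interquartile range was 0.51 between 1 and 5 FPKM and 0.24 between 5 and 20 FPKM. Hspb1, for HSP27, the most abundant of them, had 70.5 FPKM under casein and 65.0 under soy. Hspb6, for HSP20 of muscle and other tissues, had 27.4 and 34.1 FPKM, 1.24-fold higher. Hspb8, which works with Bag3 in chaperone-assisted autophagy, had 6.47 and 4.74 FPKM, 1.36-fold lower and the lowest of all measured chaperones. Bag3 itself had 19.8 and 18.8 FPKM. Hspb11, of intraflagellar transport, had 8.58 and 8.24 FPKM.

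Hspb2 had 7.31 FPKM in casein and 12.1 in soy kidney, 1.66-fold higher. Its neighbour on chromosome 8 is Cryab, the gene of alphaB-crystallin, itself a small heat shock protein whose symbol falls outside the families listed. The pair lies head to head in mouse. In the coordinates of the files Hspb2 spans 54105806 to 54106778 and Cryab 54107831 to 54111368, 1052 bases apart. Cryab had 300.1 FPKM under casein and 576 under soy, 1.92-fold higher, and so stood at 41.1 and 47.6 times the level of Hspb2. Cryab carries the authors' mark of significance (q = 0.0120 in the authors' deposited table), whereas Hspb2 does not (p = 0.116 there, q = 0.999991). Whether fragments of the abundant neighbour entered the Hspb2 value was not tested.

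Markers of the inner medulla and of osmolyte handling were higher in the same comparison. All 8 found of 9 were higher with soy, with a median log2 of 0.55 and a summed level of 404 FPKM under casein and 614 under soy. Among them were the aldose reductase Akr1b1 (36.7 and 91.7 FPKM), the water channel Aqp4 (8.52 and 15.9) and the inositol transporter Slc5a3 (6.29 and 11.0). None of the 8 was at 0 in either library, and Slc14a2, also listed, was not found. Of the 6 measured Hspb genes 3 were higher and 3 lower with soy, the lower ones including Hspb1 and Hspb8. Hspa4l was 1.13-fold higher. The part of inner medulla content in these values, and in those of Cryab and Hspa1a, was not tested. The labels do not give the region of kidney sampled.

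Hspb7, known from heart and skeletal muscle, had 1.03 FPKM under casein and 1.58 under soy, 1.53-fold higher. Its level is close to the limit of 1 FPKM, its p in the authors' deposited table is 0.965, and its listed locus is a span that holds 7 other rows. Of 8 muscle markers 4 were found and 2 measured, Des (14.1 and 7.47 FPKM) and Tagln (66.6 and 46.6 FPKM), both lower with soy. The part of muscle cells in the Hspb7 value was not tested.

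Cochaperones set the pace of HSP70 and HSP90. Of 14 measured genes listed as HSP70 cochaperones 6 were higher and 8 lower with soy (median log2 -0.01). None was past 1.5-fold, a limit passed by 11.9% of all measured genes. Hyou1 is counted both here and among the folding enzymes of the endoplasmic reticulum. The furthest was Bag4, which encodes an HSP70-binding protein that silences death receptors, at 12.3 FPKM under casein and 18.2 under soy, 1.48-fold higher. Serp1, placed in this list although it belongs to the endoplasmic reticulum translocon, followed with 122 and 139 FPKM. Of 17 genes listed as HSP90 cochaperones 11 were higher and 6 lower (median 0.03). Trap1, in that list, is itself an HSP90. Fkbp5, a glucocorticoid-induced immunophilin, had 37.5 and 30.6 FPKM, 1.22-fold lower, while Cdc37l1 had 11.8 and 13.6 and the phosphatase Ppp5c 55.7 and 62.7. The 9 housekeeping genes found had a median of -0.05, with 3 higher and 6 lower, from -0.51 to 0.36. Immediate early genes, which handling and stress can induce, had a median of -0.10 over 7 measured genes, 2 higher and 5 lower. Atf3 had 8.99 FPKM under casein and 3.61 under soy, and carries the authors' mark of significance (q = 0.0352 in the authors' deposited table). It alone of the 7 was past 1.5-fold, where 11.9% of all measured genes were. Of the other markers, the median was 0.27 for proximal tubule, where 6 genes were higher and 2 lower, from -1.03 to 0.63. For endothelium the median was also 0.27, with 4 higher and 1 lower. For thick ascending limb and distal tubule it was 0.12, with 2 higher and 2 lower, from -0.87 to 0.51. Podocyte markers had a median of -0.20 and the 2 measured muscle genes -0.71.

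**Figure D4:**
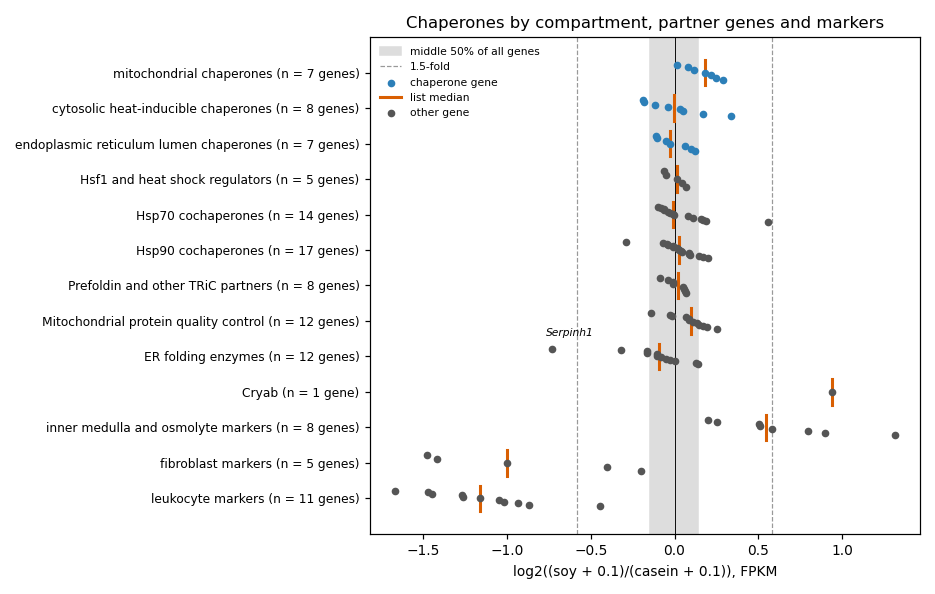
Log2 difference, soy over casein, of measured genes in lists: chaperone genes by compartment (blue), and partner genes, Cryab and cell markers (dark grey). Orange lines are list medians, the grey band is the interquartile range of all measured genes and dashed lines mark 1.5-fold. The medians of the 3 chaperone groups lie between -0.03 and 0.18. That of the inner medulla and osmolyte markers lies at 0.55, and those of fibroblast and leukocyte markers at -1.0004 and -1.16.

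The mean of 10 of the 74 genes was under 1 FPKM. Dnajb8 and Dnajc5g were listed at 0 under both diets, and Dnajc5b, Dnajb7, Hspb9, Cct6b and Cct8l1 had less than 0.5 FPKM. Hspb3, a muscle protein, had 0.432 FPKM under casein and 0.675 under soy. Dnajb13, of the sperm tail and ciliary axoneme, had 0.220 and 0.0733 FPKM, and Dnajc5b 0.157 and 0.0170. The low levels do not allow these differences to be read as a change.

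The authors' own comparison gave no call in these families. Of the 74 genes in the authors' deposited table, 71 had the status OK and 0 carried the mark of significance, where 0.848% of the 17450 rows with that status did. An unadjusted p under 0.05 stood in the authors' deposited table, from the authors' own test (no exact or permutation test was possible here), for Dnajb13 (p = 0.0336) and Dnajc5b (p = 0.0381), both under 1 FPKM. Such a p was given to 2 of the 71 genes and to 6.73% of all rows with that status. All 64 measured genes had q = 0.999991 there. The second deposited table is named by the authors as a list of significant transcripts, and none of its 145 belongs to one of the 74 genes. With 74 genes among 29516 rows, such a short list says little about them. How many libraries entered the authors' comparison is not stated, so a q near 1 does not show that the diets act alike on these genes.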

How the data were processed

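Kidney RNA of 2 libraries, 1 per diet, was sequenced by the authors. FPKM values per gene and per transcript are the authors' deposited values, and per the submitters' processing notes Bowtie, TopHat and Cufflinks were used; their versions, the build, the annotation and any scaling between columns are not stated. The p-values and q-values are those of the authors' deposited table. Depth in fragments is unknown. Of 2236 deposited rows too low for the authors' test but above 0 under both diets, 291 had a soy to casein ratio within 1 window of width 0.04 around 1.09, against 31 and 21 in the windows on either side, which gives the value of 1 fragment in soy relative to casein.

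Rows were chosen by symbol, and log2 values used a pseudocount of 0.1 FPKM. Limits were a mean of at least 1 FPKM and a ratio of 1.5. Genes named were all measured Hspa, Hspb, Hsp90, Hsph1, Hspd, Hspe and Cct genes, genes past 1.5-fold, the extremes and the 3 most abundant of each family, up to 3 genes of each partner list with the largest differences, and Hsf1, Tcp1, Cryab and Bag3. Other genes named were chosen after their values were seen. The members, 20 gene lists of 186 entries and the compartment groups were chosen with earlier results of these data known. No test across samples was possible. The code for the log2 values and counts was checked on simulated tables with known answers, which is no test of the diets. Promoters came from RefSeq (GRCr8), matched by symbol. Alternatives were other pseudocounts, limits, scalings and row sets. Tools were pandas 2.3.3, numpy 2.4.6 and, for plots, matplotlib 3.10.9, run in Python 3.11.15. One item is not reported here.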

Additional observations from a re-analysis of the deposited data

How the results depend on the processing

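No paired analysis was possible because each diet has 1 library, and for the same reason no library could be left out. The median log2 difference of the chaperone genes, 0.03, stayed between 0.02, centred on all genes, and 0.08, centred on housekeeping genes, in all 9 alternatives run. The number at least 1.5-fold lower, 0, was 2 with no filter on low values (Dnajb13 and Dnajc5b) and 2 with a limit of 25% (Hspb8 and Dnajb3). The number at least 1.5-fold higher, 2, was 3 with no filter on low values (Hspb3 is added), 1 with a mean of at least 5 FPKM, 0 with a 2-fold limit and 4 with a limit of 25%. It was 1, Hspb2, when the limit was applied to the log2 value with the pseudocount, an alternative chosen after the data were seen. Of 64 family medians under alternatives, 1 moved by at least 0.1: that of Hspb went from 0.13 to -0.06 at a mean of at least 5 FPKM, where Hspb7 is left out; that of Cct also changed sign, from 0.01 to -0.002. Small differences have no error attached, and unknown depth limits the low genes most.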
